A study of Mus musculus with 6 samples.

Results

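The genes described here are 10 genes of glycolysis and of glucose, lactate and pyruvate transport in the mouse oocyte, namely Slc2a1, Hk1, Gpi1, Pfkp, Aldoa, Pgam1, Eno1, Pkm, Ldhb and Slc16a1. They were chosen by name, with earlier results of these data known. Every row of the expression table that the platform annotation gives to 1 of them alone was read. For 8 of the 10 genes there were such rows, 13 in all, out of 19938 genes with 1-gene rows and 35556 probe sets. Gpi1 and Eno1 had no such row, so their expression was not read. A probe set, or row, is a group of array probes summarised to 1 value, and the unit throughout is log2 expression, so a difference of 1 is a doubling.

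Fully-grown oocytes at the germinal-vesicle stage were measured on 6 arrays, 3 from Marf1+/+ (wild type) and 3 from Marf1 ENU/ENU females, in which both copies of Marf1 carry a chemically induced mutation. The strain of both genotypes is given as C57BL/6J;C3HeB/FeJ. Females of both genotypes received 5 IU of the gonadotropin eCG at 21 days of age and oocytes were collected 46 hours later, at 23 days. Oocytes were freed of cumulus cells mechanically, and their RNA was amplified before labelling. The labels give neither the number of oocytes or females behind a sample nor whether each sample had its own animals. The p-values therefore rest on the spread among these 6 samples, and that spread may be technical. The mutation is present in the whole animal, so the cells around the mutant oocyte carried it too. In bulk samples, fewer cells of a type and less RNA per cell cannot be told apart.

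Glycolysis splits glucose into pyruvate in the cytosol. Glucose enters by carriers such as Slc2a1, is phosphorylated by hexokinase, and passes through phosphofructokinase and aldolase to the lower steps, where phosphoglycerate mutase, enolase and pyruvate kinase lead to pyruvate. Lactate dehydrogenase interconverts pyruvate and lactate, and monocarboxylate carriers such as Slc16a1 move both across the plasma membrane. The mouse oocyte is a known exception among cells, since it uses glucose poorly and depends on pyruvate, much of which its cumulus cells make by glycolysis and hand over.

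The labels were checked on the mutated gene first. Marf1 (probe set 10437852) read 9.21, 9.16 and 9.31 in wild type and 5.98, 6.40 and 6.16 in the mutant, a difference of -3.05 (SE 0.15, limma adjusted p = 1e-04). The deposited array medians lay between 4.56 and 4.76. Mutant replicate 3 stood apart, with correlations of 0.970 to 0.973 with the other mutant arrays, against 0.984 to 0.985 between wild-type arrays. Of 35556 probe sets 2765 passed an adjusted p of 0.05, and 61.5% of these were higher in the mutant. That share was 56.2% after quantile and 73.8% after cyclic loess normalization, and 53.9% to 78.3% over all settings tried.

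Slc16a1 and Pgam1 were higher in the mutant and Pkm was lower, while the other 5 genes with rows did not pass. That is 2 higher and 1 lower of 8 genes, where 10.4% of all genes passed in either direction (6.40% higher and 4.04% lower), or 16.2% of the 12397 genes brighter than a dim-signal mark (9.94% higher and 6.29% lower). That mark is 4.51, the 95th percentile of the mean levels of 1190 olfactory and vomeronasal receptor genes, and is called the receptor-gene level below. Of the 13 probe sets 6 passed, against 7.78% of all probe sets (4.78% higher and 3.00% lower), but 3 of these 6 belong to Pgam1 and 2 to Pkm, so they are not separate observations. The 3 mutant values lay above the 3 wild-type values for 2 genes and below them for 2, where the groups did not overlap in 30.7% of all genes (12.9% above and 17.7% below). Of the 8 differences 6 were negative, with a median of -0.15, against -0.04 over all genes. That baseline is not matched for brightness, since 0 of the 8 rows used lay below the receptor-gene level in both genotypes, against 7083 of all 19938 genes. For a gene with several rows, these counts use the brightest row by its mean of all 6 arrays. For Hk1 that is probe set 10414661, which lists no RefSeq transcript and may not read Hk1. The other Hk1 row lay below the receptor-gene level in both genotypes. Because the genes were chosen with earlier results known, these shares do not test for an excess.

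**Figure D1:**
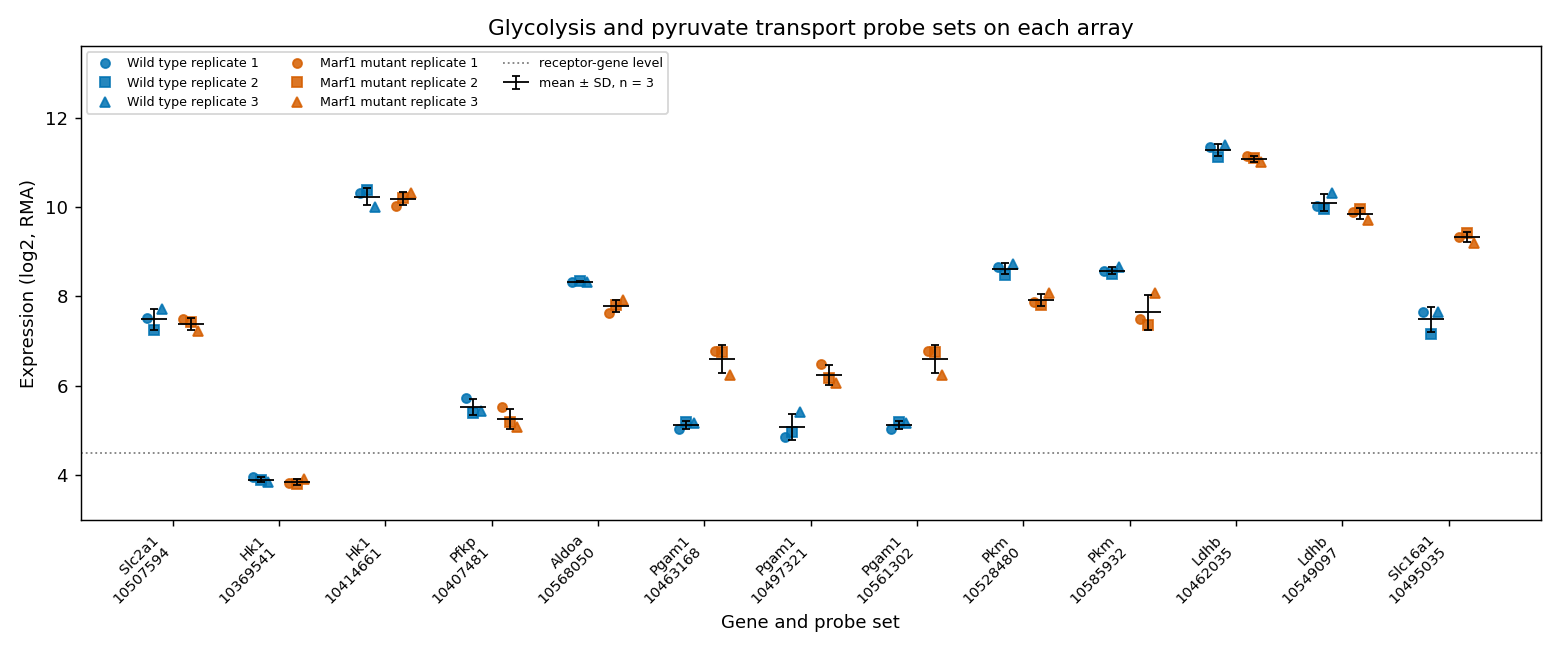
Log2 expression of the 13 probe sets of the 8 genes on each of the 6 arrays. Each symbol is 1 array (blue wild type, orange Marf1 mutant), black bars give the mean ± SD of 3 arrays, and the dotted line is the receptor-gene level of 4.51; levels of different probe sets are not comparable with each other. The orange symbols of Slc16a1 and of all Pgam1 probe sets lie above the blue ones, those of Pkm and Aldoa below.

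**Figure D2:**
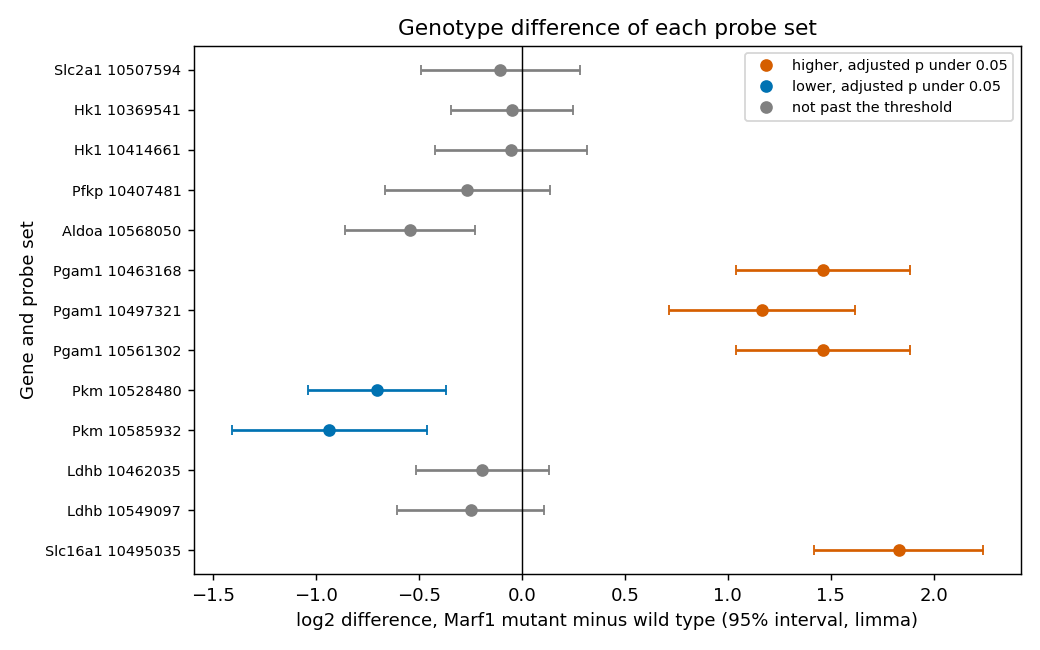
Difference between genotypes (Marf1 mutant minus wild type, log2) for each of the 13 probe sets, with the 95% interval of the limma fit as bars. Slc16a1 (1.83) and the Pgam1 probe sets (1.17 and 1.46) lie to the right of 0, both Pkm probe sets (-0.70 and -0.93) and Aldoa (-0.54) to the left, and the intervals of Slc2a1, Hk1, Pfkp and Ldhb span 0.

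The promoters of the 3 genes that passed are shown because hypoxia-inducible factor, a textbook regulator of glycolysis genes, can bind sites with ACGTG. Other forms of its site were neither marked nor counted, so the marks are not all its possible sites. Each is the RefSeq stretch of 250 bases before a transcript start (GRCm38.p6, all on the plus strand). Capitals mark ACGTG on either strand, so that CACGT reads ACGTG on the opposite strand and CACGTG holds it on both. The position of Slc16a1 is chr3:104638414-104638663, that of Pgam1 chr19:41911621-41911870, and those of the 2 Pkm starts chr9:59656326-59656575 and chr9:59656977-59657226.
Slc16a1: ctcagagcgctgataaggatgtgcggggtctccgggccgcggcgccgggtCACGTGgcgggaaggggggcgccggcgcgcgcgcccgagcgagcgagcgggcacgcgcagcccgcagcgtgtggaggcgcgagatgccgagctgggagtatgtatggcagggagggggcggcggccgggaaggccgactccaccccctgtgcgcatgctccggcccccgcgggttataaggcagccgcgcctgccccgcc
Pgam1: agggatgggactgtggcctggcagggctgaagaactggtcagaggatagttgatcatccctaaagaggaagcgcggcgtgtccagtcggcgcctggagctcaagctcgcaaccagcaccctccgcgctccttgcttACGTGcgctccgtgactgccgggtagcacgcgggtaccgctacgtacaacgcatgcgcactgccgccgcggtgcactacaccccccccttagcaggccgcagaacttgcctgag
Pkm, first start: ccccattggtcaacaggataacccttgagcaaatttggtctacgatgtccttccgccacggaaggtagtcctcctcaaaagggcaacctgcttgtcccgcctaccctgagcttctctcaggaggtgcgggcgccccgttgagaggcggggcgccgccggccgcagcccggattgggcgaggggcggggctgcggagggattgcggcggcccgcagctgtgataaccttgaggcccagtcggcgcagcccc
Pkm, second start: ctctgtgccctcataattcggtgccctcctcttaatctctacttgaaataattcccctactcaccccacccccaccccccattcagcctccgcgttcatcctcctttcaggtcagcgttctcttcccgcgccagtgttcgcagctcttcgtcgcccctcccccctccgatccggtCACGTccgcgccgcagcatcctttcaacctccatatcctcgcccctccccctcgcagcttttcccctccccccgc
Slc16a1, which was higher in the mutant, held 1 CACGTG, the palindrome known as the E-box, beginning 200 bases before the start. Pgam1, also higher, held 1 ACGTG beginning 114 bases before its start, and Pkm, which was lower, held 1 at its second start, beginning 75 bases before it, and none at its first. Over the 16 windows of all 10 genes, Gpi1 and Eno1 included, 6 held ACGTG, from 5 genes, against 16.6% of 32851 RefSeq windows of the same length. Some of these windows overlap, and both Aldoa windows with a match share 1 site, so the 6 are not separate sites. The longer CACGTG, which contains ACGTG, was in 6.02% of all windows and in 1 of the 16. A different word, the GC box GGGCGG on either strand, was in 32.7% of all windows and in 9 of the 16, from 7 genes. The windows were not matched for base content, so these shares do not single out ACGTG. A match describes these letters only, and binding or regulation at these sites was not tested.

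Among the carriers, Slc16a1, which moves lactate and pyruvate together with a proton (probe set 10495035), read 7.66, 7.17 and 7.65 in wild type and 9.34, 9.43 and 9.20 in the mutant. All mutant values exceeded all wild-type values by a wide margin, and mutant replicate 3 lay with the other mutant arrays. The means were 7.49 ± 0.28 and 9.32 ± 0.12 (SD, n = 3 each), a log2 difference of 1.83 (SE 0.18, 95% interval 1.42 to 2.24, 3.56-fold higher, limma adjusted p = 9.36e-04). Slc2a1, the glucose carrier of many cell types (probe set 10507594), read 7.51, 7.25 and 7.71 in wild type and 7.49, 7.44 and 7.23 in the mutant. The genotypes overlapped, and the log2 difference of -0.10 had a 95% interval of -0.49 to 0.28 (adjusted p = 0.83).

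At the first steps of the pathway no row passed. Hk1, hexokinase 1, had 2 rows. Probe set 10369541 lists 2 RefSeq transcripts of Hk1 and read 3.97, 3.90 and 3.85 in wild type and 3.84, 3.81 and 3.93 in the mutant. Both genotype means lay below the receptor-gene level, so this row gave a dim signal in both genotypes. Probe set 10414661 read 10.31, 10.38 and 10.01 in wild type and 10.03, 10.21 and 10.31 in the mutant. It is annotated to Hk1 by 1 accession alone, which is no RefSeq transcript. That accession stands on 18 rows of the table, and 16 of them list Hk1 together with Rpl17, a ribosomal protein gene, and were not counted as Hk1 rows. Those 16 rows had mean levels of 9.05 to 11.2, with genotype differences of -0.023 to 0.09, none of which passed. The rows next to probe set 10414661 in the order of the IDs are named for Snord58b and Rpgrip1, and 0 of the 6 nearest named rows belong to a gene that neighbours Hk1 in RefSeq, against 6 of 6 for the dim row, which lies between Tspan15 and Hkdc1. Neither row differed between genotypes beyond its spread (differences of -0.047 for the dim and -0.05 for the bright row, 95% intervals -0.34 to 0.25 and -0.42 to 0.32).

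Pfkp, the platelet-type phosphofructokinase (probe set 10407481), read 5.74, 5.40 and 5.45 in wild type and 5.52, 5.19 and 5.09 in the mutant. The genotypes overlapped, with a log2 difference of -0.26 (95% interval -0.66 to 0.14, limma adjusted p = 0.496). Aldoa, the aldolase that splits the phosphorylated sugar (probe set 10568050), read 8.32, 8.35 and 8.32 in wild type and 7.64, 7.80 and 7.92 in the mutant. Every mutant value lay below the wild-type values, which were nearly equal. The means were 8.33 ± 0.02 and 7.79 ± 0.14 (SD, n = 3 each) and the log2 difference was -0.54 (SE 0.14, 95% interval -0.86 to -0.23), which just missed the threshold at an adjusted p of 0.0538. Without mutant replicate 3 it passed (-0.61, limma adjusted p = 0.0388), and it did not pass without any other single array (adjusted p = 0.126 to 0.164).

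Of the lower steps, Pgam1, the phosphoglycerate mutase that shifts the phosphate group ahead of enolase, was higher in the mutant. Probe set 10463168 read 5.03, 5.20 and 5.17 in wild type and 6.79, 6.76 and 6.24 in the mutant. Mutant replicate 3 was the lowest mutant array, but still 1.04 above the highest wild-type array. The means were 5.13 ± 0.09 and 6.60 ± 0.31 (SD, n = 3 each), a log2 difference of 1.46 (SE 0.18, 95% interval 1.04 to 1.89, 2.76-fold higher, limma adjusted p = 0.00293). Pgam1 had 3 rows, and 2 of them, 10463168 and 10561302, were identical on all 6 arrays and count as 1 measurement. The remaining row, 10497321, read 4.87, 4.96 and 5.41 against 6.49, 6.18 and 6.07, a difference of 1.17 (adjusted p = 0.0113, and 0.0523 without wild-type replicate 1). All 3 rows list the same 7 accessions. Only probe set 10463168 lies among the genes that neighbour Pgam1 in RefSeq, between Frat1 and Zdhhc16. Probe sets 10561302 and 10497321 lie between Sptbn4 and Pld3 and between Snx16 and Gm10745, with 0 of 6 nearby rows from neighbours of Pgam1. For the identical rows, the loci behind the signal cannot be told apart.

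Pkm, the pyruvate kinase gene of most tissues outside liver and red cells, was lower by both of its rows. Probe set 10585932, which lies between Parp6 and Gramd2, among the neighbours of Pkm, read 8.56, 8.51 and 8.66 in wild type and 7.49, 7.36 and 8.08 in the mutant. Mutant replicate 3 was closest to wild type, and the genotypes did not overlap. The log2 difference was -0.93 (SE 0.20, 95% interval -1.41 to -0.46, limma adjusted p = 0.0333). The row with the higher mean, 10528480, lies between rows for Orc5 and 5031425E22Rik, with 0 of 6 nearby rows from neighbours of Pkm, and lists no RefSeq transcript. It read 8.65, 8.49 and 8.73 against 7.88, 7.81 and 8.07, a difference of -0.70 (SE 0.14, adjusted p = 0.026). The call of Pkm was not stable: it was lost after quantile normalization (adjusted p = 0.0544 and 0.0806 for probe sets 10528480 and 10585932) and after cyclic loess normalization (0.0931 and 0.117). It was also lost, for both rows, without any 1 array other than mutant replicate 3, while the direction stayed the same.

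Ldhb, the heart-type subunit of lactate dehydrogenase, is the form known to dominate in mouse oocytes. Probe set 10549097, between Gys2 and Kcnj8 among the neighbours of Ldhb, read 10.03, 9.95 and 10.31 in wild type and 9.88, 9.95 and 9.72 in the mutant. Probe set 10462035, between Cemip2 and Trpm3, with 0 of 6 nearby rows from neighbours of Ldhb, read 11.33, 11.11 and 11.38 against 11.14, 11.10 and 11.01. In both rows the genotypes overlapped, and the log2 differences of -0.25 (95% interval -0.60 to 0.11) and -0.19 (95% interval -0.51 to 0.13) did not pass (limma adjusted p = 0.466 and 0.557).

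Replacing the highest-mean row by the row among the gene's RefSeq neighbours changed the row read for Hk1, Pkm and Ldhb and left the members' count at 2 higher and 1 lower.

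**Figure D3:**
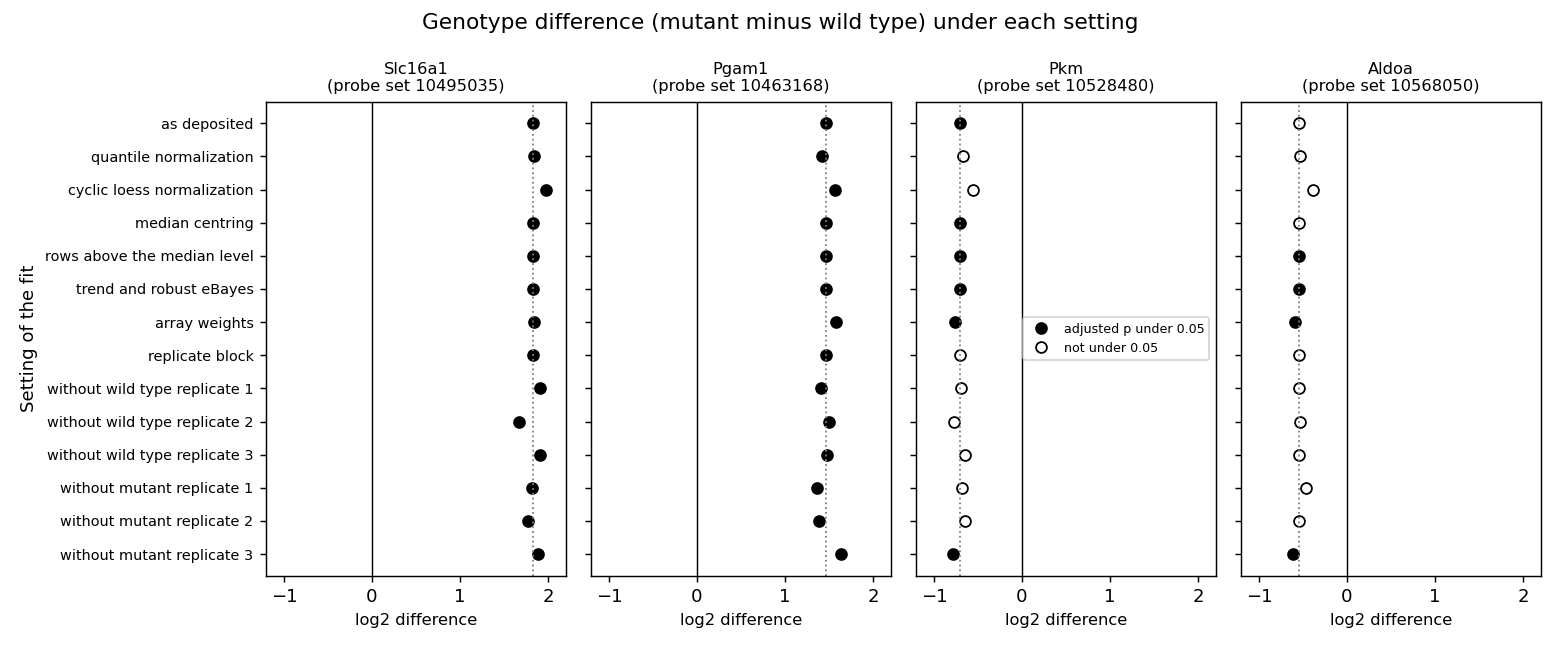
Log2 difference (Marf1 mutant minus wild type) of Slc16a1, Pgam1, Pkm and Aldoa as deposited, under 7 other settings and without each array in turn, always at the same row, with filled symbols for an adjusted p under 0.05 and a dotted line at the value as deposited. Slc16a1 (1.67 to 1.98) and Pgam1 (1.37 to 1.64) stay filled throughout, while Pkm and Aldoa change between filled and open without changing side of 0.

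The genes around these members were read from 6 lists of 126 genes, of which 117 had rows. The lists too were chosen with earlier results of these data known. Together 8 rose and 6 fell, which is 12.0% against 10.4% of all genes and 16.2% of those brighter than the receptor-gene level. Of the 117 differences 83 were negative (70.9%, against 56.5% of all genes). That baseline is not matched for brightness, since 26 of the 117 lay below the receptor-gene level in both genotypes, against 7083 of all 19938 genes. Rows above the median level had a median difference of -0.09, against -0.04 over all genes. Without wild-type replicate 1, 3 rose and 0 fell, and without wild-type replicate 3, 6 rose and 0 fell. Without wild-type replicate 2 there were 5 and 3, and without mutant replicate 2, 7 and 3. Median centring gave 6 and 2, with Tigar, Pgd, Ldhd, Pdha2, Prps2 and Fbp1 no longer past the threshold. Other settings raised the counts: quantile normalization gave 10 and 9, rows above the median level 11 and 9, and array weights 11 and 8. Cyclic loess normalization gave 10 and 4, and the replicate block 6 and 4.

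**Figure D4:**
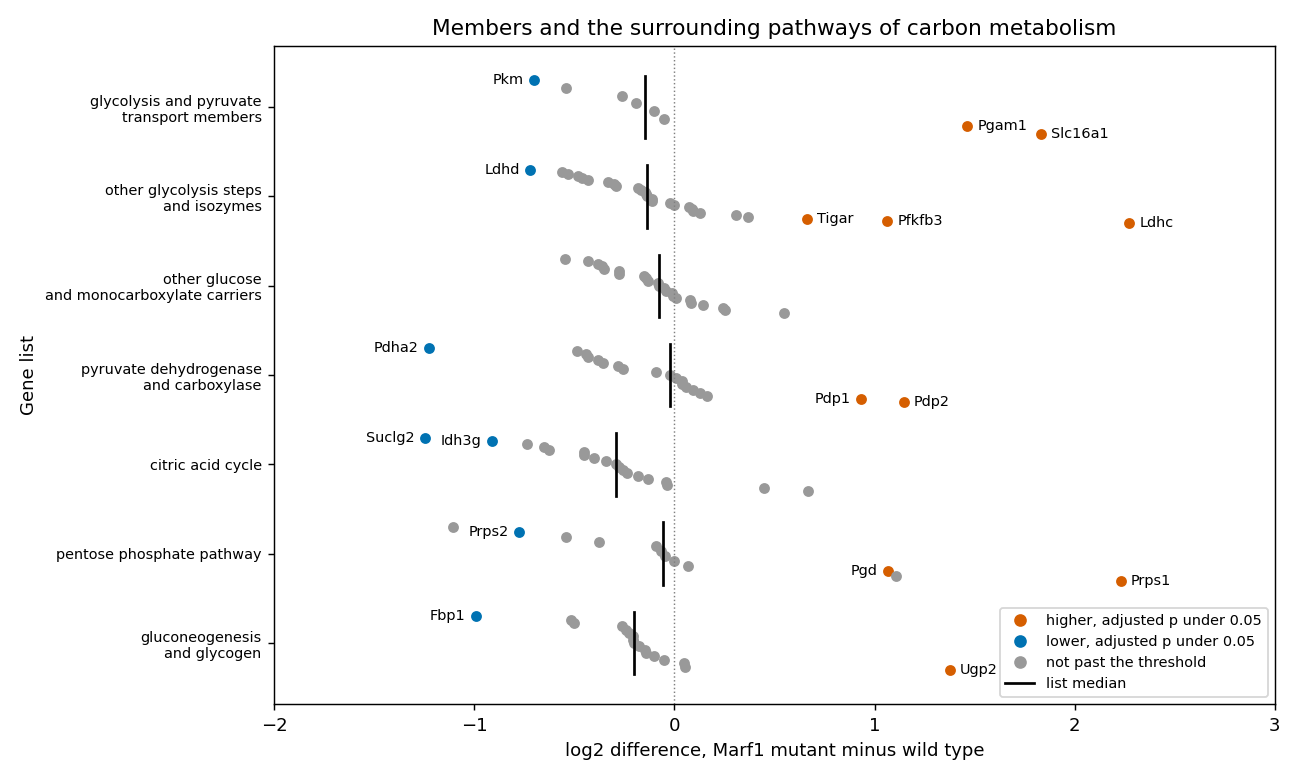
Log2 difference (Marf1 mutant minus wild type) of every measured gene in 7 lists, with each gene 1 point, named where the adjusted p was under 0.05, and the list median as a black bar. Ldhc (2.27), Prps1 (2.23), Slc16a1 (1.83) and Pgam1 (1.46) lie farthest to the right, and most grey points of the citric acid cycle lie to the left of 0.

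In glycolysis itself, 3 of 27 other enzymes and isozymes rose and 1 fell. That is 14.8%, against 10.4% of all genes and 16.2% of those brighter than the receptor-gene level. Ldhc, the lactate dehydrogenase subunit known from the male germ line, read 7.44, 7.08 and 6.95 in wild type and 9.38, 9.51 and 9.40 in the mutant. It had a larger difference than any member, at 2.27 (SE 0.16, 4.83-fold higher, limma adjusted p = 2.86e-04), and all 6 fits without 1 array kept it past the threshold. Ldha, the muscle-type subunit whose row is next to that of Ldhc, read 5.33, 5.26 and 5.40 against 4.99, 5.23 and 4.90, a difference of -0.29 that did not pass (adjusted p = 0.332). Of the genes whose products set the level of an activating fructose bisphosphate of phosphofructokinase, Pfkfb3, which makes it, rose by 1.06 (adjusted p = 0.0137, lost without wild-type replicate 1 or 2), and Tigar, which removes it, rose by 0.66 (adjusted p = 0.0421, kept only without mutant replicate 3 among the fits without 1 array). Ldhd, a mitochondrial D-lactate dehydrogenase, changed by -0.72 (adjusted p = 0.0474, kept only without wild-type replicate 2). Triose phosphate isomerase Tpi1 (-0.46), phosphoglycerate kinase Pgk1 (-0.56) and the phosphofructokinase subunits Pfkl (-0.48) and Pfkm (-0.53) had negative differences that did not pass (adjusted p = 0.077 to 0.129), although in each of the 4 the mutant values lay below all wild-type values. In the whole list of 27 the mutant lay below in 9 genes and above in 4, among them Adpgk, an ADP-dependent glucokinase (0.31, adjusted p = 0.351), against 17.7% and 12.9% of all genes.

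Of 23 other glucose and monocarboxylate carriers and their partners, 0 passed in limma, against 10.4% of all genes. At an unadjusted p under 0.05, 1 was higher and 3 were lower, against 11.0% and 13.5% of all genes. Bsg, the chaperone that brings Slc16a1 to the membrane, read 6.49, 6.20 and 6.65 in wild type and 5.90, 6.24 and 5.91 in the mutant (-0.43, adjusted p = 0.222). Mpc1, a subunit of the carrier that takes pyruvate into mitochondria, varied more between arrays of 1 genotype than between genotypes, at 5.30, 5.84 and 5.97 against 5.86, 6.33 and 4.89 (-0.01, 95% interval -0.85 to 0.83). That row, its only one, lies between Mok and Cinp, with 0 of 6 nearby rows from neighbours of Mpc1. The related carrier Slc16a13 had no overlap between genotypes but missed the threshold (0.55, adjusted p = 0.0655).

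At the entry of pyruvate into the citric acid cycle, 2 of 19 genes rose and 1 fell. That is 15.8%, against 10.4% of all genes and 16.2% of those brighter than the receptor-gene level. The 2 that rose were both phosphatases that switch pyruvate dehydrogenase on. Pdp1 read 8.84, 9.27 and 9.09 in wild type and 10.09, 10.02 and 9.89 in the mutant (0.93, SE 0.16, limma adjusted p = 0.0119, and 0.0527 in the least favourable fit without 1 array). Pdp2 read 4.82, 4.96 and 4.58 against 6.24, 5.80 and 5.76 (1.15, SE 0.18, adjusted p = 0.00949, kept without any 1 array). The kinases that switch the complex off, Pdk1 to Pdk4, had differences of -0.38 to 0.06 and did not pass. The subunits of the complex, Pdha1, Pdhb, Dlat, Dld and Pdhx, lay between -0.09 and 0.16 and did not pass either. Pdha2, the testis form of the first subunit, changed by -1.23 (adjusted p = 0.039), with both means below the receptor-gene level. It lost the call after quantile (0.0577), cyclic loess (0.0674) or median (0.0721) normalization and in 4 of 6 fits without 1 array.

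Of 19 citric acid cycle genes 2 fell and 0 rose, which is 10.5%, near the 10.4% of all genes. It is below the 16.2% of genes brighter than the receptor-gene level. Of the differences 17 were negative (89.5%, against 56.5% of all genes), with a median of -0.29 against -0.04 over all genes. These baselines are not matched for brightness. Of the 19 genes 0 lay below the receptor-gene level in both genotypes, against 7083 of all 19938. Rows above the median level had a median difference of -0.09. Of the 16 oocyte markers, with 0 below the receptor-gene level in both genotypes, 13 were negative too (81.2%). The part of signal level in this lean was not tested. Suclg2, a subunit of succinate-CoA ligase, changed by -1.25 (SE 0.21, limma adjusted p = 0.0129), and by -1.11 (adjusted p = 0.0212) in its row among its RefSeq neighbours. Idh3g, a subunit of isocitrate dehydrogenase, changed by -0.91 (SE 0.16, adjusted p = 0.0156). Suclg2 lost the call without wild-type replicate 1 or 3, and Idh3g without any 1 wild-type array or mutant replicate 1. At an unadjusted p under 0.05, 9 of the 19 were lower and 2 higher, where 13.5% and 11.0% of all genes were.

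In the pentose phosphate pathway and the step to nucleotides that follows it, 2 of 12 genes rose and 1 fell. That is 25.0%, against 10.4% of all genes and 16.2% of those brighter than the receptor-gene level. Prps1, which makes the ribose donor for nucleotides, read 5.26, 5.77 and 4.59 in wild type and 7.92, 6.69 and 7.70 in the mutant. Its replicates were widely spread in both genotypes, and the difference was 2.23 (SE 0.39, limma adjusted p = 0.0137, and 0.0529 without wild-type replicate 1). Pgd, which makes NADPH, rose by 1.07 (adjusted p = 0.0279, kept in 2 of 6 fits without 1 array). Prps2 changed by -0.78 (adjusted p = 0.0412, kept in 1 of 6), with its mutant mean of 3.95 below the receptor-gene level. Prps2 lost the call after quantile (0.0591), cyclic loess (0.0723) or median (0.0763) normalization. Among 17 genes of gluconeogenesis and glycogen, 1 rose and 1 fell (11.8%, near the 10.4% of all genes). Ugp2, which makes UDP-glucose, rose from 6.30 ± 0.28 to 7.67 ± 0.26 (SD, n = 3 each, difference 1.38, adjusted p = 0.00638), past the threshold without any 1 array. Fbp1, the phosphatase that opposes phosphofructokinase, changed from 6.87 ± 0.09 to 5.87 ± 0.38 (-0.99, adjusted p = 0.0259, kept in 2 of 6 fits without 1 array).

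Cumulus cells are rich in glycolytic enzymes, so their markers were read beside these results. Of 21 cumulus and granulosa markers with rows, 2 rose and 0 fell (9.52%, near the 10.4% of all genes). Of the differences 14 were negative (66.7%, against 56.5% of all genes), with a median of -0.09. Mean levels over the 21, the 2 that rose included, were 4.66 to 4.82 on the wild-type arrays and 4.72 to 4.95 on the mutant arrays. They were highest in mutant replicate 3 and close to the receptor-gene level of 4.51. The defining markers Fshr (4.04 ± 0.33 and 4.24 ± 0.27, SD, n = 3 each) and Amh (4.42 ± 0.14 and 4.07 ± 0.19) lay below that level in both genotypes, and Cyp19a1 had no 1-gene row. Of the 21, 8 lay below it in both genotypes and 10 above it in both, among them Foxl2 (5.14 and 5.08), Gja1 (5.59 and 5.65) and Esr2 (5.45 and 5.57), which did not pass. The part of such cells in the results was not tested. The 2 that rose were Nr5a2, a nuclear receptor that read 8.71 already in wild-type oocytes, and Kitl, the ligand of Kit, from 3.72 to 5.66. The oocyte markers Gdf9 (11.73 and 11.65) and Zp3 (10.96 and 10.75) were high in both genotypes, and the 16 oocyte markers averaged 10.04 to 10.23 on the wild-type and 9.81 to 10.10 on the mutant arrays, with Kit lower (-1.28). Of 11 theca and stroma markers 1 rose (Pdgfra, 0.67, from a wild-type mean below the receptor-gene level, and lost in all 6 fits without 1 array, at adjusted p = 0.0519 to 0.121) and of 9 blood, immune and endothelial markers 1 fell (Pecam1, -1.07, lost without wild-type replicate 1 or 3). These counts are 9.09% and 11.1%, near the 10.4% of all genes.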

How the data were processed

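Each array has a column of deposited values, which are on a log2 scale and carry 2 decimals. Per the submitters' processing notes the authors used GCOS, Affymetrix Expression Console 1.1 and RMA, which corrects background, normalizes between arrays and summarises probes, so the values are relative and do not measure total RNA per oocyte. The array's genome build was not given in the sources used here.

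A two-sided limma 3.58.1 fit (R 4.3.3, lmFit and eBayes) with genotype alone in the model ran on all 35556 rows. Benjamini-Hochberg adjustment ran over all of them, with 0.05 as the threshold. Gene names came from the platform annotation (21789 rows with 1 gene, 1621 with several, 12146 not named). A row's flanks were the 3 named 1-gene rows before and after it by ID, set against 10 RefSeq genes on each side. In genes with 1 row, 99.8% had such a neighbour. The number of arrays limits precision.

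Named genes were all members, Marf1, the listed genes past the threshold and defining markers; Tpi1, Pgk1, Pfkl, Pfkm, Ldha, Adpgk, Me1, Bsg, Mpc1, Slc16a13, Foxl2, Gja1, Esr2, the Pdk genes and the pyruvate dehydrogenase subunits were added after their values were seen. Members and lists were chosen with earlier results of these data known. Alternatives were quantile, cyclic loess and median normalization, a level filter, another variance model, array weights, a replicate block, leaving out each array, the mean of a gene's rows and, added after seeing the data, rows among RefSeq neighbours.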

Additional observations from a re-analysis of the deposited data

How the results depend on the processing

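Slc16a1 and the highest Pgam1 row were higher and past the threshold in every setting tried, so the members' higher count was 2 in each. The lower count, 1 as deposited, was 0 after quantile or cyclic loess normalization and with the replicate block, 2 with rows above the median level only, with trend and robust variance or with array weights, and 0 to 2 when 1 array was left out. Leaving out 1 array gave 3 to 7 member probe sets (6 as deposited), 3 to 9 higher and 0 to 4 lower genes in the surrounding lists (8 and 6 as deposited, 2 lower after median centring), and 1368 to 2804 probe sets in all (2765 as deposited). With rows above the median level only, the surrounding lists had 11 higher and 9 lower genes. Differences near 0 changed sign: Slc2a1 was 0.057 after cyclic loess and -0.22 to 0.0067 with 1 array left out, and the bright Hk1 row was 0.0086 and 0.070 after quantile and cyclic loess normalization and -0.16 to 0.027 with 1 array left out. The cause was not tested.

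The labels do not say whether equal replicate numbers pair the samples. Deviations from the group means correlated at 0.15, -0.099 and 0.027 for numbers 1 to 3. Unequal numbers were not compared, so these values cannot exclude pairing. With the replicate block 1946 probe sets passed, of the members 2 higher and 0 lower, and Pkm had an adjusted p of 0.054 at probe set 10528480 but 0.0437 at probe set 10585932, which kept its call. Of 19 named genes outside the members that passed, 13 lost the call without at least 1 array.

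With 3 arrays a genotype, small differences are beyond reach, and no background measurement comes with dim rows such as that of Hk1.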

Other observations

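Several genes of carbon metabolism are represented by a row that is not among the gene's own neighbours. Of 999 genes with several rows, 243 had their highest mean in such a row while another row lay among the RefSeq neighbours. Of the 8 members and surrounding pathway genes with several rows, 6 did, namely Hk1, Pkm, Ldhb, Pgk1, Me1 and Suclg2. In each of the 6 the genotype difference had the same sign in both rows. Me1, the cytosolic malic enzyme that turns malate into pyruvate, differed by -0.44 in the brightest row and -0.41 in the row among its neighbours (limma adjusted p = 0.0982 and 0.115). Pgk1 differed by -0.56 and -0.54 (adjusted p = 0.113 and 0.119). Gapdh, the glycolytic dehydrogenase with many processed copies in the mouse, is listed on 25 rows, each together with other genes, so no value of it was read.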
